A study of Mus musculus with 12 samples.

Results

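Genes of the cell cycle and of DNA replication were followed in adventitial fibroblasts, which form the connective tissue around the vessel, grown from the ascending and the descending aorta. The set held 43 of the 54352 gene symbols that were counted: 17 genes of S phase and replication, the D-type cyclins Ccnd1 and Ccnd2, 21 genes of G2 phase and mitosis, and the CDK inhibitors Cdkn1a, Cdkn2a and Cdkn2b. They were taken from a list of gene names, and all 43 passed the filter on low counts in every comparison. The cells were primary cultures of wild-type C57Bl/6 mice aged 14 weeks by the sample labels, passaged before treatment, and received either the solute control or mouse TGFβ at 10 ng/mL for 48 h. The 4 groups were ascending control, ascending TGFβ, descending control and descending TGFβ, with 3 libraries each, and the design asks how TGFβ changed the genes at each site and how the sites differed with and without it. Whether the replicates came from separate animals is not stated in the sources used here, so p-values measure only the spread between these cultures.

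A fibroblast enters the cycle when D-type cyclins, with their kinases, phosphorylate the retinoblastoma protein and release E2F factors, which switch on the genes for DNA synthesis. Later in the cycle another wave of genes, bound by MuvB complexes with B-MYB and FOXM1, supplies the cyclins, kinases, kinesins and centromere proteins of mitosis. CDK inhibitors hold both steps back, and TGFβ is known for raising Cdkn2b and slowing division in epithelial cells, while its effect on fibroblasts varies with the culture. In RNA of a whole culture, fewer cycling cells and less RNA per cycling cell cannot be told apart.

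Short words at which factors of these waves are known to bind were searched in the promoters, and 5 promoters that hold such words are printed to show them. RefSeq promoter windows of GRCm38.p6, from 250 bases before to 50 after the transcription start, were matched by symbol for 33 of the 43 members. Printed are the 250 bases before the start, 5′ to 3′ on the gene's strand: Mcm5 (chr8:75109259-75109508, plus strand), Mcm6 (chr1:128359706-128359955, minus strand), Top2a (chr11:99024190-99024439, minus strand), Mki67 (chr7:135716380-135716629, minus strand) and Kif11 (chr19:37376132-37376381, plus strand). Capitals mark E2F words in the first 2 sequences and words of the cell cycle homology region in the other 3, on either strand, and adjoining capitals in Mcm5 and Mcm6 are overlapping E2F words of opposite strands.
Mcm5: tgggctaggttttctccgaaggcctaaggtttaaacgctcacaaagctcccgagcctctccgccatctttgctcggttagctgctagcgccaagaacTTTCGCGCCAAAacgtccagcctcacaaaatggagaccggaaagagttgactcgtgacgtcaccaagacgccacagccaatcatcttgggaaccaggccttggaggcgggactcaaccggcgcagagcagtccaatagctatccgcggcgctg
Mcm6: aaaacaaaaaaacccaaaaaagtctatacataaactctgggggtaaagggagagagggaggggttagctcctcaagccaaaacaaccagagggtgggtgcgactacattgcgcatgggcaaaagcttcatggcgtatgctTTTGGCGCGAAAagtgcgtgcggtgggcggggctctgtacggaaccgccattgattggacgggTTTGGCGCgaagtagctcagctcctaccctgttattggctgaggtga
Top2a: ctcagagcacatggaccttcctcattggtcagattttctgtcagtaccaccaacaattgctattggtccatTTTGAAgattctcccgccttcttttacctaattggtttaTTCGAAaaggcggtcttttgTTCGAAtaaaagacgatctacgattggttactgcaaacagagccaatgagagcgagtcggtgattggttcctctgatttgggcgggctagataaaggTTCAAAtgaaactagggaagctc
Mki67: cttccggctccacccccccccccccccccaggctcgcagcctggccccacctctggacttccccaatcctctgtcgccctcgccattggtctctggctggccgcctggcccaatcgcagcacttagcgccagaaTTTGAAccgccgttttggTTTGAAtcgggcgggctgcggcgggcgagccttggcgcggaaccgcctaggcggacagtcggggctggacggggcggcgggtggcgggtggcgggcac
Kif11: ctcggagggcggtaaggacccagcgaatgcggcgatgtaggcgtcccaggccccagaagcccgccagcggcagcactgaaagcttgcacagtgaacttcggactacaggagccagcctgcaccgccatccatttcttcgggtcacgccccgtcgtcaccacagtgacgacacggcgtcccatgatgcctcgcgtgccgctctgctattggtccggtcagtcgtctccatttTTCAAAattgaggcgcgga

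The E2F words searched were TTTGGCGC, TTTCCCGC, TTTGCCGC and TTTCGCGC, and those of the cell cycle homology region, the element at which MuvB complexes bind, were TTTGAA and TTCGAA, all on both strands. An E2F word lay in the window of 6 of 14 S phase members (42.9%), namely Mcm3, Mcm5, Mcm6, Mcm7, Cdc6 and Cdt1, in 1 of 16 mitosis members (6.25%), which was Cdk1, and in 704 of all 27025 genes with a window (2.6%). The words of the cell cycle homology region showed the reverse, with 13 of 16 mitosis members (81.2%), 3 of 14 S phase members (21.4%) and 21.7% of all genes. A CCAAT box, searched as CCAAT, lay in 15 of 16 mitosis members (93.8%), 8 of 14 S phase members (57.1%) and 41.1% of all genes. In further genes of the same processes, E2F words lay in 14 of 37 replication genes (37.8%) and 6 of 44 mitosis genes (13.6%), and cell cycle homology words in 6 (16.2%) and 30 (68.2%). The CCAAT box was about as frequent in both of these lists, in 22 of the 37 (59.5%) and 28 of the 44 (63.6%). No test was made of these shares. A word is a description of the window and not a binding site, and its absence says only that these letters are not there.

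**Figure D1:**
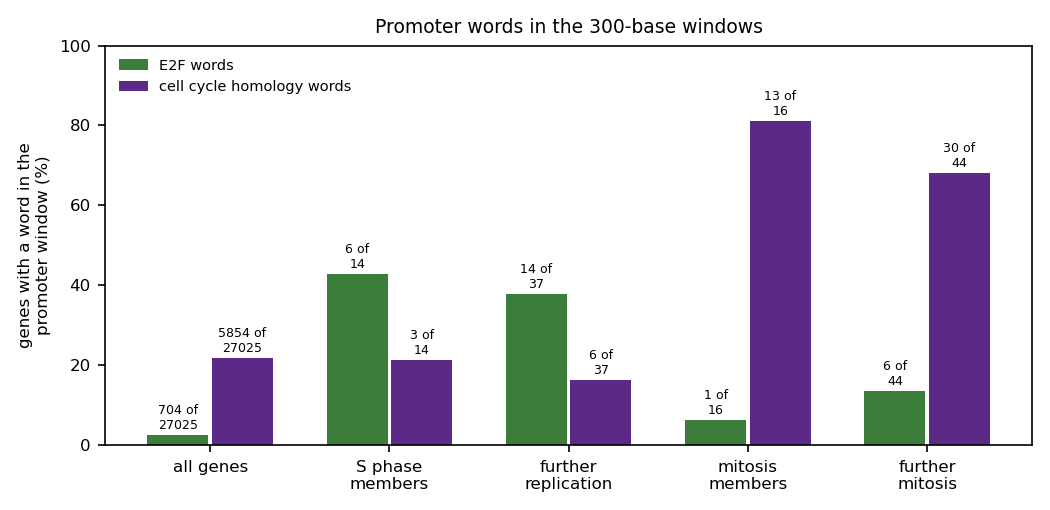
Share of genes (%, vertical axis) whose 300-base promoter window holds an E2F word (green) or a word of the cell cycle homology region (purple), for all genes, for the S phase and mitosis members and for further genes of both processes, with the counts above each bar. E2F words are frequent among replication genes and cell cycle homology words among mitosis genes.

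Libraries held 16250126 to 23892943 counts on genes, and values are normalized CPM, the share of a gene in its library's counts (CPM) scaled with edgeR's TMM method. Summed over the 12 libraries, mitosis members had 2014 to 15969 counts and S phase members 203 to 46324. Each comparison used edgeR's two-sided quasi-likelihood F-test with Benjamini-Hochberg adjustment over all genes tested, and a gene was called at an adjusted p under 0.05. A value after ± is the SE of the log2 fold change from that fit, with 3 libraries per group unless replicate 3 is left out. Descending control replicate 3 stood apart from the others: it had counts on 13031 genes against 19337 to 20931, and mitochondrial genes took 11.02% of its reads against 0.703 to 1.03%. Among the members it had no count for Cdt1, Gins2, Fen1 and Cenpa, lay above both other descending controls for 12 of 21 mitosis members and below both for the other 9, and lay below both for all 3 inhibitors. It was kept in the tests of 6 or 12 libraries, and counts of calls that rest on it are given with it and without it. The comparisons of TGFβ with control in ascending cells and of the sites under TGFβ do not contain it.

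All 8 fibroblast markers were above 3 counts in at least some libraries of each group, and their sum lay between 14329 and 26200 normalized CPM over the 12 libraries. The 6 endothelial markers summed to 23.9 to 27.1 in the control groups, 8.42 to 9.71 in descending TGFβ and 4.02 to 4.87 in ascending TGFβ, with Tie1 and Emcn at or under 3 counts in every library. The 6 markers of differentiated smooth muscle summed to 275 to 297 in descending TGFβ, 150.1 to 159 in ascending TGFβ, 167 to 181 in descending control and 119 to 129 in ascending control. Single markers went both ways with TGFβ. Their log2 fold changes ran from -1.35 to 1.94 in ascending cells and from -1.41 to 1.93 in descending cells with the 6 libraries. The 6 macrophage and leukocyte markers summed to 51.2 to 341 in ascending control and to 13.5 to 45.0 in the other groups. The part of these cell types in the results was not tested.

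The 43 genes differed in abundance by orders of magnitude. On the scale of normalized CPM per kilobase of exon, Ccnd1 stood at 245 and Ccnd2 at 175 in ascending control, and Cdkn1a at 116, Cdkn2a at 111 and Cdkn2b at 41.5. S phase members had a median of 5.92 on this scale, from Fen1 at 0.418 to E2f1 at 20.8, and mitosis members a median of 5.78, from Cenpf at 1.01 to Cdc20 at 22.7. Fen1 shared 76.7% of its 50-base exon sequences with other genes. Descending TGFβ had the lowest mean of the 4 groups for all 21 mitosis members and for 12 of 17 S phase members, and the highest mean for all 3 CDK inhibitors, with descending control taken as its replicates 1 and 2. The plot of the mean level of each gene group by library shows the descending TGFβ libraries apart from the other 9 for mitosis genes, and the D-type cyclins lower in the TGFβ libraries of both sites.

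**Figure D2:**
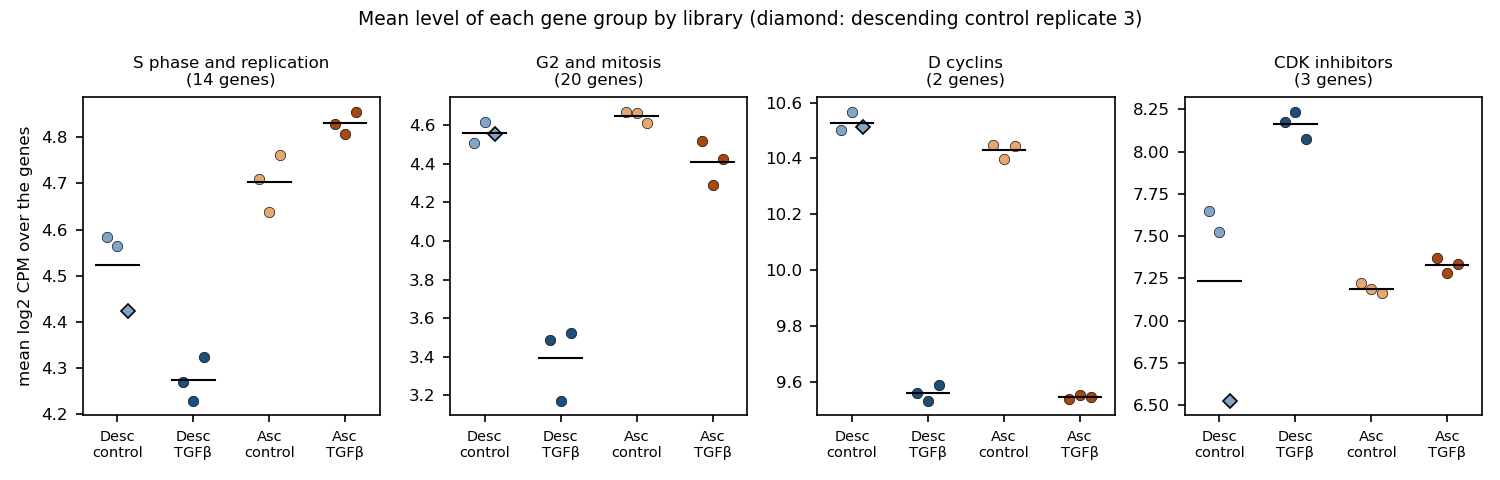
Mean log2 CPM over the genes of each group with a count in every library (vertical axis, a separate scale for each panel) in the 12 libraries, by site and treatment, with a bar at the mean of 3 libraries and a diamond for descending control replicate 3. For 20 mitosis genes the descending TGFβ libraries lie below all others, with a group mean of 3.39 against 4.56 in descending control, 4.65 in ascending control and 4.41 in ascending TGFβ.

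The D-type cyclins fell with TGFβ at both sites. Ccnd1, cyclin D1, stood at 1174, 1119 and 1164 normalized CPM in ascending control and at 476, 486 and 497 in ascending TGFβ. In descending cells it stood at 1050.3, 1076 and 765 in control and at 433, 409 and 447 with TGFβ. At neither site did the treated and control libraries overlap, and the low control value was that of replicate 3. The fall was 2.38-fold in ascending cells (log2 fold change -1.25 ± 0.03, SE, n = 3 per group, edgeR adjusted p = 1.46e-15) and 2.25-fold in descending cells (-1.17 ± 0.16, adjusted p = 0.0115), or 2.47-fold without descending control replicate 3 (-1.30 ± 0.05). With replicate 3 kept, the call in descending cells was lost when any one of the other 5 descending libraries was left out, and over 14 alternatives the adjusted p ranged from 2.97e-166 to 0.0997. Ccnd1 shared 21.6% of its 50-base exon sequences with other genes, most often LTO1 on the opposite strand, and the strand setting of the counting is not given in the sources used here.

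Ccnd2, cyclin D2, changed less and stood higher in descending cells. Its control libraries had 1657, 1623 and 1669 normalized CPM in ascending and 1999.6, 2137 and 2786 in descending cells, and its TGFβ libraries 1159, 1161 and 1126 in ascending and 1315, 1341 and 1324 in descending cells. Every TGFβ library lay below every control library of its site. The log2 fold change was -0.53 ± 0.03 in ascending (edgeR adjusted p = 1.73e-11) and -0.81 ± 0.15 in descending cells (adjusted p = 0.0315), or -0.64 ± 0.05 without descending control replicate 3, and the descending call was lost without any one of the other 5 libraries as well (adjusted p from 2.38e-50 to 0.180 over 14 alternatives). Under TGFβ, Ccnd1 was 1.13-fold higher and Ccnd2 1.15-fold lower in ascending than in descending cells (edgeR adjusted p = 0.000404 and 1.26e-05). The interaction, the difference between the sites in the change with TGFβ, was not called for either cyclin with or without descending control replicate 3, at 0.06 ± 0.05 for Ccnd1 and 0.11 ± 0.05 for Ccnd2 without it.

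Under TGFβ the mitosis genes differed between the sites without exception. All 21 members were higher in ascending than in descending TGFβ libraries, and all 21 were called. No ascending value overlapped a descending one, but the share of all genes without overlap was not taken for this comparison. Over all 13678 genes tested in this comparison, 18.1% were called higher and 18.2% lower in ascending cells. The median log2 difference of the 21 members was 1.01, from 0.67 for Foxm1 to 1.43 for Aurkb, beside a median of 0.0024 over all genes. All 21 were also called in each alternative run, leave-one-out fits included, except with the 12 libraries in one fit, whose shared spread includes descending control replicate 3 and where 14 were called. Library totals without TMM moved the calls over all genes from 2476 higher and 2487 lower to 3333 and 1950, and those among the 43 members from 35 higher and 4 lower to 36 and 4.

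Mki67, the proliferation marker Ki-67 that coats mitotic chromosomes, stood at 39.5, 33.4 and 36.1 normalized CPM in ascending TGFβ and at 16.5, 16.7 and 20.9 in descending TGFβ libraries. Its controls had 41.2, 42.6 and 41.8 in ascending and 39.9, 47.7 and 109 in descending cells. The ascending control values were close together, and the value of 109 in descending control replicate 3 stood above all other values of the gene. Under TGFβ, Mki67 was 2.01-fold higher in ascending cells (log2 1.01 ± 0.08, edgeR adjusted p = 5.04e-11).

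Top2a, the topoisomerase that untangles sister chromatids, had 69.7, 59.6 and 66.2 normalized CPM in ascending TGFβ and 33.1, 30.3 and 38.0 in descending TGFβ. Its control values were 70.8, 69.4 and 69.6 in ascending and 68.9, 78.4 and 137 in descending cells. Descending TGFβ was thus the group apart, and the difference between the sites under TGFβ was 0.94 ± 0.07 on the log2 scale (edgeR adjusted p = 2.57e-12). Cenpe, the kinesin that moves chromosomes to the spindle equator, had 25.5, 24.6 and 22.1 in ascending TGFβ and 9.80, 9.49 and 11.4 in descending TGFβ, with 25.5, 27.9 and 25.4 in ascending control and 21.5, 24.4 and 71.8 in descending control. It was 2.34-fold higher in ascending cells under TGFβ (1.23 ± 0.09, edgeR adjusted p = 7.64e-12).

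Ube2c, the ubiquitin conjugating enzyme of the anaphase promoting complex, had 40.02, 34.3 and 37.2 normalized CPM in ascending TGFβ and 19.5, 14.7 and 18.6 in descending TGFβ. Its control libraries had 38.1, 44.4 and 42.0 in ascending and 30.5, 34.9 and 46.6 in descending cells, so that its ascending values with and without TGFβ overlapped. The difference under TGFβ was 1.07 ± 0.08 on the log2 scale (edgeR adjusted p = 1.67e-11). Ube2c shared 16.0% of its 50-base exon sequences with other genes, most often Tnnc2. Foxm1, the transcription factor of the G2 and mitosis genes, differed least of the 21 members, with 25.4, 22.4 and 24.5 in ascending TGFβ against 15.1, 13.4 and 16.7 in descending TGFβ, and with 26.7, 24.1 and 23.1 in ascending and 23.5, 26.3 and 29.3 in descending control.

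**Figure D3:**
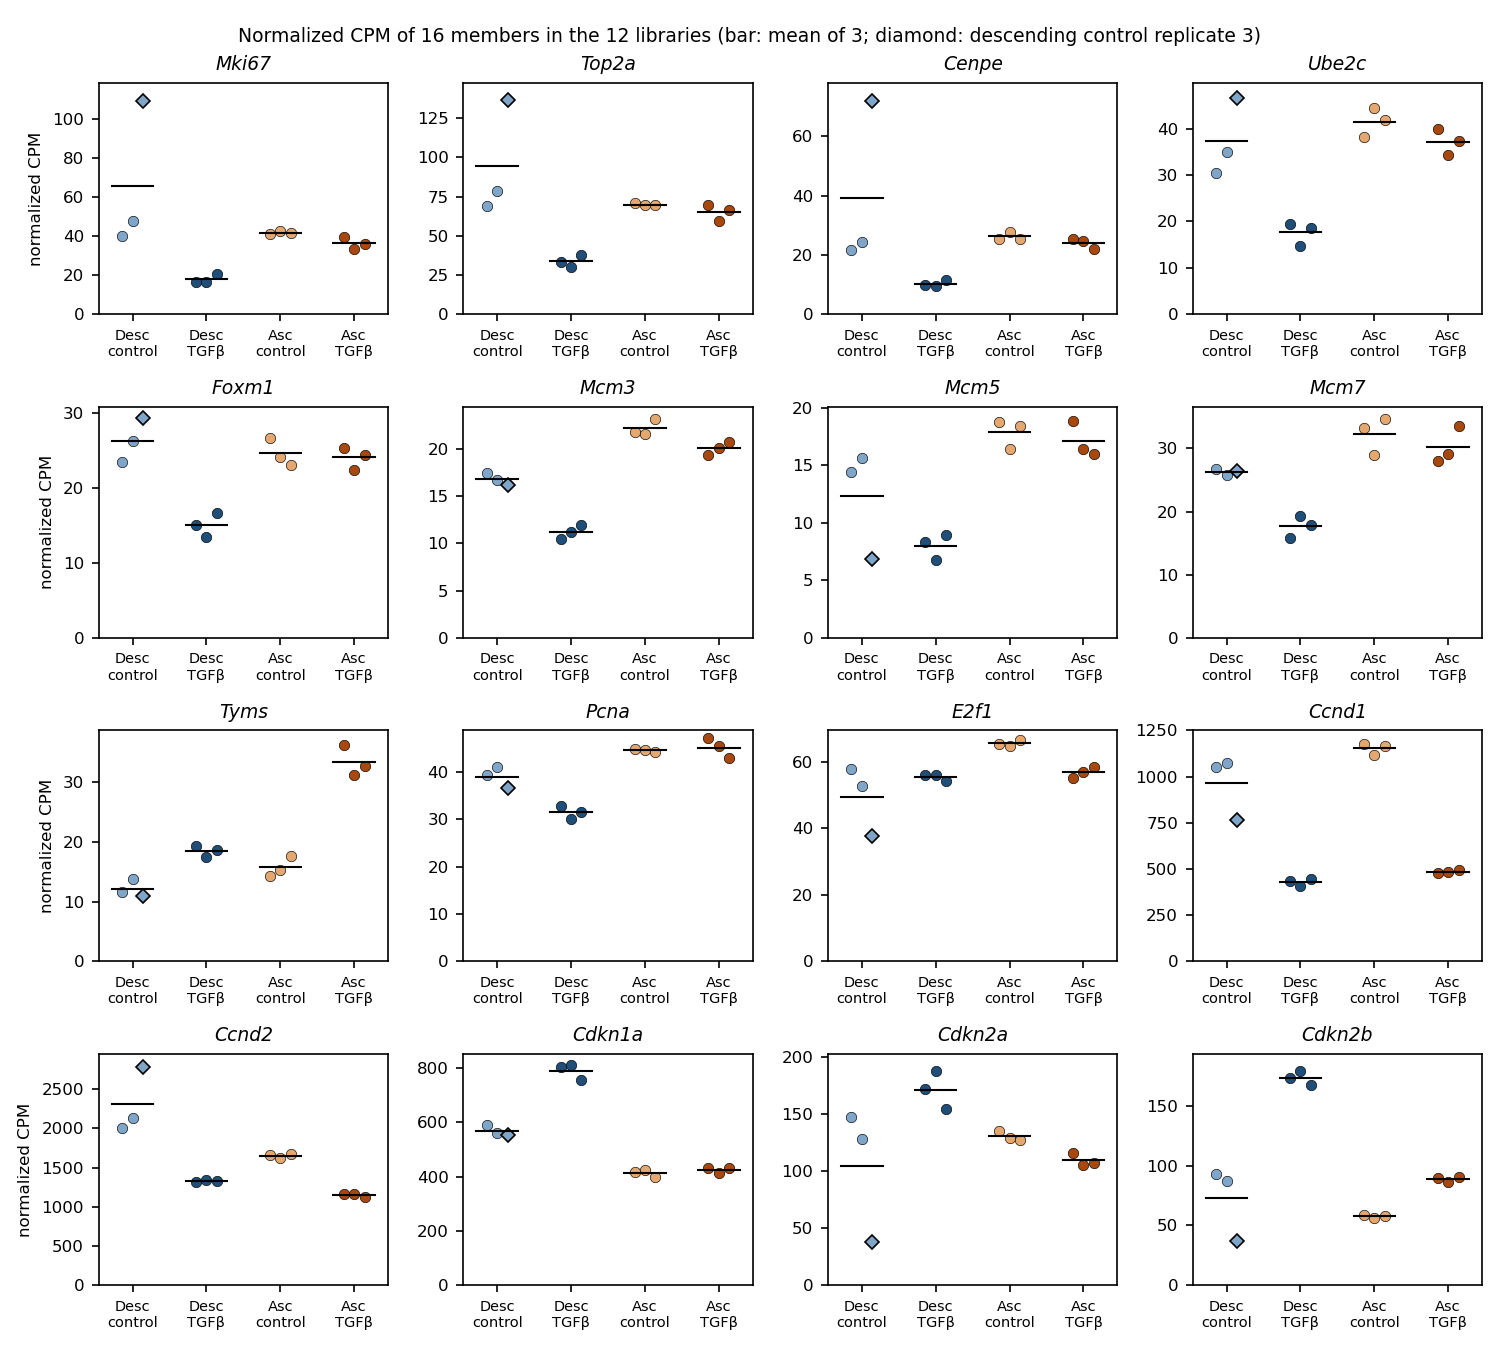
Normalized CPM (vertical axis, from 0) of 16 members in each of the 12 libraries, by site and treatment, with a bar at the mean of 3 libraries and a diamond for descending control replicate 3. For Mki67, Top2a, Cenpe, Ube2c and Foxm1 the 3 descending TGFβ libraries lie below the other 9, whereas Ccnd1 and Ccnd2 are lower in the TGFβ libraries of both sites.

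The other mitosis members behaved alike under TGFβ. Among the cyclins and their kinase, the log2 difference of ascending from descending cells was 0.86 ± 0.10 for Ccna2, 1.07 ± 0.11 for Ccnb1, 1.01 ± 0.15 for Ccnb2 and 0.92 ± 0.09 for Cdk1. Of the mitotic kinases, Plk1 differed by 1.14 ± 0.12, Aurka by 0.85 ± 0.11 and Aurkb by 1.43 ± 0.16. The spindle checkpoint kinases Bub1 and Bub1b differed by 1.18 ± 0.13 and 0.97 ± 0.14, and their target Cdc20, the activator of the anaphase promoting complex, by 0.90 ± 0.09. Proteins of centromeres and spindles gave 1.04 ± 0.14 for Cenpa, 1.10 ± 0.16 for Cenpf, 1.07 ± 0.11 for Kif11, 1.04 ± 0.10 for Kif20a, 0.83 ± 0.08 for Tpx2 and 0.95 ± 0.11 for Birc5 (survivin). Within the TGFβ groups replicate 2 was the lowest of the 3 libraries for 19 of 21 members in descending TGFβ and for 17 of 21 in ascending TGFβ, while in the controls the lowest library varied with the gene, at 8, 4 and 9 members for replicates 1, 2 and 3 of descending control and 6, 2 and 13 for those of ascending control. The labels do not tie these libraries to each other beyond the number.

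In descending cells TGFβ lowered the mitosis genes, and the number called depended on the libraries kept. With all 6 libraries, 12 of 21 were called lower and none higher, beside 4.48% of 13825 genes called lower and 3.59% called higher. Without descending control replicate 3 all 21 were called lower, beside 26.3% of 14311 genes called lower and 26.6% called higher. With that library kept and any one of the other 5 left out, 0 to 3 were called: 3 without control replicate 1, 1 without control replicate 2 and 0 without any one of the TGFβ replicates. Lower calls over all genes fell in the same fits, to 279 of 14034, 206 of 14058 and 107 to 111 of 14268 to 14344 genes. Library totals without TMM moved the calls over all genes from 496 higher and 619 lower to 351 and 817, and those among the 43 members from 1 higher and 15 lower to 0 and 18. The median log2 fold change of the 21 members was -1.18 with that library and -1.16 without it, beside 0.02 and -0.01 over all genes. Every TGFβ library lay below every control library for 18 of 21 members, beside 19.5% of all genes, and the other 3, Aurka, Aurkb and Cenpa, overlapped through descending control replicate 3, which had 2.35, 1.79 and 0 normalized CPM where replicates 1 and 2 had 12.0 and 12.8, 8.60 and 12.0, and 22.0 and 23.6.

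For Mki67 the log2 fold change with TGFβ in descending cells was -1.87 ± 0.42 (edgeR adjusted p = 0.0511) with the 6 libraries and -1.27 ± 0.09 (adjusted p = 1.06e-12) without descending control replicate 3, and over its 14 alternatives the adjusted p ranged from 4.36e-22 to 0.233. Top2a fell by 1.49 ± 0.29 (adjusted p = 0.0347) with the 6 libraries and by 1.12 ± 0.08 without that replicate, and Ube2c by 1.09 ± 0.22 (adjusted p = 0.0364) and 0.88 ± 0.10. Neither was called when any one of the other 5 libraries was left out, with adjusted p up to 0.182 for Top2a and 0.178 for Ube2c. Cenpe had -1.94 ± 0.51 (adjusted p = 0.0787) and -1.16 ± 0.11. Across the members the fold changes without that replicate ran from -0.58 for Aurka to -1.72 for Cenpf.

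In ascending cells 13 of the 21 mitosis members fell with TGFβ. They were called lower and none higher, beside 27.6% of 13917 genes called lower and 28.2% called higher, with a median log2 fold change of -0.25 beside -0.0044 over all genes. Library totals without TMM moved the calls among the 43 members from 6 higher and 19 lower to 3 and 28, and those over all genes from 3929 and 3838 to 2754 and 5176. Called lower were Ccna2, Ccnb1, Ccnb2, Cdk1, Mki67, Bub1b, Aurkb, Cdc20, Cenpa, Cenpf, Kif11, Kif20a and Ube2c. Among them Ccnb2 fell by 0.64 ± 0.09 (edgeR adjusted p = 1.01e-05), Cenpf by 0.64 ± 0.13 (adjusted p = 0.000564) and Mki67 by 0.21 ± 0.06 (adjusted p = 0.00689). The members not called had log2 fold changes of -0.13 ± 0.09 for Plk1, -0.13 ± 0.07 for Cenpe, -0.11 ± 0.05 for Top2a and Tpx2, -0.11 ± 0.09 for Birc5, -0.04 ± 0.07 for Foxm1, 0.01 ± 0.11 for Bub1 and 0.02 ± 0.10 for Aurka. TGFβ and control libraries did not overlap for 12 of the 21, beside 30.1% of all genes with every TGFβ library below every control. Without ascending TGFβ replicate 2, 8 were called, and with the 12 libraries in one fit, whose shared spread includes descending control replicate 3, none was called and 2 had an unadjusted p under 0.05.

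**Figure D4:**
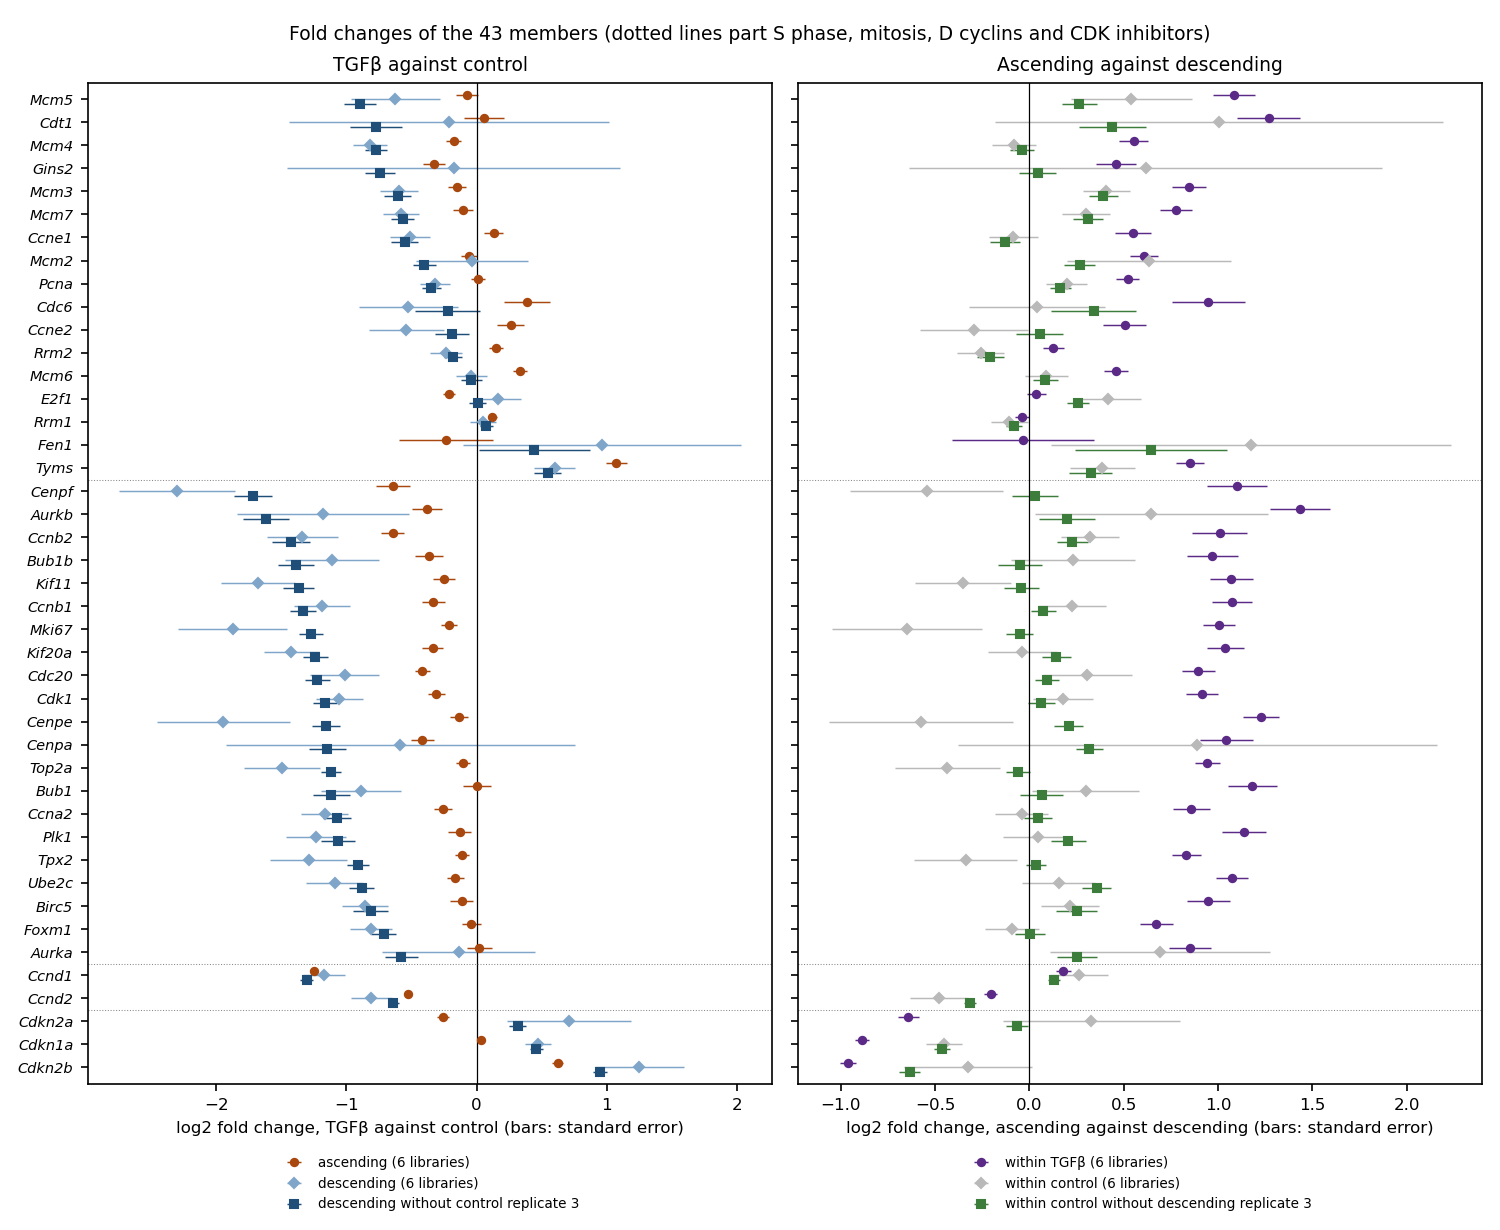
Log2 fold changes with their standard errors (horizontal axes) of the 43 members, for TGFβ against control at each site (left) and for ascending against descending cells with and without TGFβ (right), with results without descending control replicate 3 as squares. Mitosis members lie near -1.16 in descending and near -0.25 in ascending cells on the left, and near 1.01 under TGFβ and near 0 in control on the right.

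Without TGFβ fewer of these genes were called between the sites. Of the 43 members edgeR called none between ascending and descending control with the 6 libraries, where 3 had an unadjusted p under 0.05, beside 1.19% of 14090 genes called higher and 1.47% lower in ascending cells. DESeq2 called 1 member, beside 503 genes higher and 531 lower of 16563. Without descending control replicate 3 edgeR called 11 members higher and 4 lower, beside 16.4% and 15.2% of 14644 genes. Of the mitosis members 3 were called then, Ccnb2 (0.23 ± 0.08), Cenpa (0.32 ± 0.07) and Ube2c (0.36 ± 0.08), and the median of the 21 was 0.07 against 1.01 under TGFβ. The S phase members called higher were Mcm2, Mcm3, Mcm5, Mcm7, Pcna, Tyms and E2f1, from 0.16 ± 0.06 for Pcna to 0.39 ± 0.08 for Mcm3, while Rrm2 was lower by 0.21 ± 0.07. The other 3 called lower in ascending control were Cdkn2b (-0.63 ± 0.06, edgeR adjusted p = 9.39e-07), Cdkn1a (-0.46 ± 0.04, adjusted p = 8.33e-07) and Ccnd2 (-0.31 ± 0.03, adjusted p = 4.45e-06), and Ccnd1 was higher by 0.13 ± 0.03. With the 6 libraries these 3 were at -0.33 ± 0.34, -0.45 ± 0.10 and -0.48 ± 0.15, not called.

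Whether the change with TGFβ differed between the sites was tested as the interaction, and its calls varied with the same library. Over the 12 libraries edgeR called none of the 43 members, with 27 at an unadjusted p under 0.05, beside 0.321% of 14637 genes called positive and 0.485% called negative. DESeq2 called 15 members, beside 187 genes called positive and 231 negative of 14242. The edgeR adjusted p was 0.0511 for Mcm4, 0.0550 for Ccna2 and 0.0643 for Kif11. Without descending control replicate 3, 34 members were called positive, that is with a less negative or more positive change in ascending cells, and 3 negative, beside 6.07% and 7.40% of 15013 genes. These held all 21 mitosis members, with a median difference of 0.90 on the log2 scale from 0.60 for Aurka to 1.24 for Aurkb, and 13 of 17 S phase members, with a median of 0.46. For Mki67 the interaction was 1.66 ± 0.44 (edgeR adjusted p = 0.147) with all libraries and 1.06 ± 0.12 (adjusted p = 7.36e-07) without that replicate, and over its 19 alternatives the adjusted p ranged from 8.27e-12 to 0.381.

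The S phase genes went in several directions with TGFβ in ascending cells. In descending cells 13 of 17 had a log2 fold change below 0, with and without descending control replicate 3, and their calls depended on that library. With TGFβ in ascending cells 5 of 17 were called higher (Mcm6, Rrm1, Rrm2, Tyms and Ccne2) and 3 lower (Mcm4, Gins2 and E2f1), shares near or below the 28.2% and 27.6% of all genes, and the median log2 fold change was 0.01. In descending cells 1 was called with the 6 libraries, beside 4.48% of all genes called lower and 3.59% higher. It was Mcm4 at -0.82 ± 0.13 (edgeR adjusted p = 0.0175, and 0.0639 to 0.132 without any one of the other 5 libraries). Without descending control replicate 3, 10 were called lower and Tyms higher, beside 26.3% and 26.6% of all genes, with a median of -0.35. Scaling by library totals without TMM moved the median of all genes in ascending cells from -0.0044 to -0.12 and the calls among these 17 became 2 higher and 6 lower. Under TGFβ 13 of 17 were higher in ascending than in descending cells and none lower, beside 18.1% and 18.2% of all genes, with a median of 0.55. The 4 not called were Rrm1 (-0.04 ± 0.04), Rrm2 (0.13 ± 0.05), Fen1 (-0.04 ± 0.38) and E2f1 (0.04 ± 0.05).

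Tyms, thymidylate synthase, was the member with the largest rise in ascending cells. It had 14.3, 15.4 and 17.7 normalized CPM in ascending control and 36.2, 31.2 and 32.7 in ascending TGFβ, and 11.6, 13.8 and 10.9 in descending control and 19.3, 17.6 and 18.6 in descending TGFβ. All TGFβ libraries lay above the controls of their site. The rise was 2.10-fold in ascending cells (log2 1.07 ± 0.08, edgeR adjusted p = 6.63e-09), and the log2 fold change in descending cells was 0.60 ± 0.16 (adjusted p = 0.0797), or 0.54 ± 0.10 when called without descending control replicate 3. Of its 50-base exon sequences 5.72% also occur in other genes, most often Tyms-ps.

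The Mcm genes encode the 6 subunits of the replicative helicase, and they did not move as a block in ascending cells. Mcm5 had 18.8, 16.4 and 18.4 normalized CPM in ascending control and 18.9, 16.4 and 16.0 in ascending TGFβ, against 14.4, 15.7 and 6.83 in descending control and 8.37, 6.78 and 8.94 in descending TGFβ. Only the descending TGFβ libraries and descending control replicate 3 lay under 10 normalized CPM. Under TGFβ Mcm5 was 2.12-fold higher in ascending cells (1.09 ± 0.11, edgeR adjusted p = 3.2e-09).

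Mcm3 had 21.8, 21.6 and 23.2 normalized CPM in ascending control, 19.3, 20.1 and 20.8 in ascending TGFβ, 17.4, 16.7 and 16.2 in descending control and 10.4, 11.2 and 11.9 in descending TGFβ. The 4 groups did not overlap, and descending control replicate 3 lay close to its group here. Mcm7 had 33.3, 28.9 and 34.7 in ascending control, 28.1, 29.1 and 33.6 in ascending TGFβ, 26.7, 25.8 and 26.4 in descending control and 15.8, 19.4 and 17.9 in descending TGFβ, and it shared 23.3% of its 50-base exon sequences with other genes. The differences between the sites under TGFβ were 0.85 ± 0.09 for Mcm3 and 0.78 ± 0.08 for Mcm7 (edgeR adjusted p = 7.91e-09 and 9.37e-09), beside 0.61 ± 0.07 for Mcm2, 0.55 ± 0.08 for Mcm4 and 0.46 ± 0.06 for Mcm6. Mcm6 rose in ascending cells by a log2 of 0.34 ± 0.05 (edgeR adjusted p = 5.33e-05) while Mcm4 fell by 0.18 ± 0.06 (adjusted p = 0.0199), and in descending cells Mcm6 was at -0.04 ± 0.12, and at -0.04 ± 0.08 without descending control replicate 3.

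Pcna, the sliding clamp of the replication fork, had 44.7, 44.6 and 44.2 normalized CPM in ascending control and 47.0, 45.4 and 42.8 in ascending TGFβ, and 39.3, 40.9 and 36.6 in descending control and 32.7, 29.99 and 31.5 in descending TGFβ. It overlapped between treatments in ascending but not in descending cells, and differed by 0.52 ± 0.06 between the sites under TGFβ (edgeR adjusted p = 4.91e-08). Of its 50-base exon sequences 19.1% occur in other genes, most often Pcna-ps2. E2f1, the factor that starts the S phase programme, had 65.4, 64.7 and 66.6 in ascending control and 55.1, 56.9 and 58.5 in ascending TGFβ, a fall of 0.21 ± 0.05 on the log2 scale (edgeR adjusted p = 0.000885). In descending cells it had 57.7, 52.7 and 37.6 in control and 56.1, 56.1 and 54.4 with TGFβ, and its values overlapped between the sites under TGFβ.

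The cyclins E bring cells into S phase. Ccne1 had 17.4, 17.1 and 17.1 normalized CPM in ascending control and 19.1, 17.5 and 20.1 in ascending TGFβ, but 18.7, 19.3 and 16.8 in descending control and 14.3, 11.7 and 12.7 in descending TGFβ. For Ccne1, Ccne2, Rrm2 (a subunit of ribonucleotide reductase) and, in the other direction, Cdkn2a, every TGFβ library lay on one side of its controls in ascending cells and on the other side in descending cells. These 4 were chosen for that pattern after their values were seen, and the share of all genes with it was not taken. Not every change was called: Ccne1 in ascending cells was at 0.13 ± 0.07 (edgeR adjusted p = 0.149) and Ccne2 in descending cells at -0.19 ± 0.13 without descending control replicate 3 (adjusted p = 0.231). With the 6 libraries none of the 4 was called in descending cells (edgeR adjusted p = 0.113 for Ccne1, 0.320 for Ccne2, 0.316 for Rrm2 and 0.422 for Cdkn2a). The interaction, as a description, was 0.64 ± 0.16 for Ccne1, 0.79 ± 0.30 for Ccne2 and 0.39 ± 0.13 for Rrm2 over the 12 libraries, none called by edgeR (adjusted p = 0.123, 0.394 and 0.296), and 0.69 ± 0.12, 0.46 ± 0.15 and 0.34 ± 0.09 without descending control replicate 3, all called. Rrm1, the other subunit of the reductase, lay between 172 and 198 normalized CPM in all 12 libraries.

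Among the genes that load and start the helicase, Cdc6 and Cdt1 were scarce, with group means of 2.25 to 4.35 and 2.70 to 6.52 normalized CPM. They were higher in ascending than in descending TGFβ by 0.95 ± 0.19 and 1.27 ± 0.17 on the log2 scale. Gins2, a subunit of the GINS complex, differed by 0.46 ± 0.11 and shared 65.4% of its 50-base exon sequences with other genes, most often Gse1 on the opposite strand. Fen1, the flap endonuclease of Okazaki fragments, had 203 counts over the 12 libraries and shared 76.7% of its sequences with other genes, most often Gm10143. Its value is that of the reads assigned to this symbol.

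The CDK inhibitors were highest in descending TGFβ libraries. Cdkn1a, which encodes p21, had 417, 425 and 399 normalized CPM in ascending control and 432, 413 and 432 in ascending TGFβ, and 591, 560.2 and 552 in descending control and 804, 811 and 757 in descending TGFβ. Its ascending groups overlapped, and each descending library lay above every ascending one. TGFβ raised Cdkn1a in descending cells (log2 0.47 ± 0.10, edgeR adjusted p = 0.0442, and 0.46 ± 0.05 without descending control replicate 3), with 0.04 ± 0.03 in ascending cells, a value that was -0.078 and called lower when library totals were used without TMM. The call in descending cells held in 6 of 14 alternatives, with adjusted p from 1.24e-22 to 0.234. Under TGFβ Cdkn1a was 1.85-fold lower in ascending cells (-0.89 ± 0.04, edgeR adjusted p = 1.04e-17).

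Cdkn2b, which encodes p15, rose at both sites. It had 59.1, 56.3 and 57.6 normalized CPM in ascending control, 90.01, 86.7 and 90.8 in ascending TGFβ, 93.4, 87.2 and 37.3 in descending control and 174, 179.7 and 168 in descending TGFβ. The treated libraries lay above their controls at both sites, and the low descending control value was that of replicate 3. The log2 fold change was 0.62 ± 0.04 in ascending cells (edgeR adjusted p = 2.89e-09), and in descending cells 1.25 ± 0.34 (adjusted p = 0.0897) with the 6 libraries and 0.95 ± 0.06, called, without that replicate. Between the sites under TGFβ it differed by -0.96 ± 0.04 (edgeR adjusted p = 3.91e-17).

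Cdkn2a, whose counts join the transcripts for p16 and for ARF, had 135, 129 and 127 normalized CPM in ascending control and 116, 105 and 107 in ascending TGFβ, and 147, 128 and 37.9 in descending control and 172, 188 and 154 in descending TGFβ. It fell in ascending cells by 0.26 ± 0.04 on the log2 scale (edgeR adjusted p = 8.59e-05), and in descending cells the log2 fold change was 0.71 ± 0.47 (adjusted p = 0.422) with the 6 libraries and 0.32 ± 0.07, called higher, without descending control replicate 3. Under TGFβ it was 1.56-fold lower in ascending than in descending cells (-0.64 ± 0.05, edgeR adjusted p = 5.39e-11). The interaction of the 3 inhibitors without that replicate was -0.42 ± 0.06 for Cdkn1a, -0.57 ± 0.09 for Cdkn2a and -0.32 ± 0.07 for Cdkn2b, all called, and none was called over the 12 libraries (edgeR adjusted p = 0.0692, 0.557 and 0.567).

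The 43 members sit across the genome, and the inhibitor genes Cdkn2a (GRCm38, chr4:89274471-89294653) and Cdkn2b (chr4:89306299-89311039) are neighbours on the minus strand of the same chromosome. Mki67 lies at chr7:135689784-135716361, Top2a at chr11:98992943-99024189, Tyms at chr5:30058202-30073617 and Ccnd1 at chr7:144929931-144939925, all on the minus strand in the GENCODE annotation. Cdkn1a lies on the plus strand at chr17:29090976-29100727. Counts cover whole genes and were not split into exons or untranslated regions. Shared or overlapping exon sequence above 10% was also found for Ccnb1 (23.4%, most often with Ccnb1-ps), Kif20a (25.2%, most often with Cdc23), Ccne2 (14.4%), Ccna2 (11.4%), Cdc20 (10.6%) and Plk1 (10.4%).

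Further genes of the same processes were listed by name. Of 50 further mitosis genes 46 were called higher and 1 lower in ascending than in descending cells under TGFβ, beside 18.1% and 18.2% of all genes, with a median log2 difference of 0.97. Anln, the anillin of the cleavage furrow, differed by 1.24 ± 0.06 (edgeR adjusted p = 4.78e-16) and Prc1, which bundles the central spindle, by 1.07 ± 0.09 (adjusted p = 6.52e-11). Lower was Cenpt, a kinetochore protein, at -0.29 ± 0.08, which was not called without descending TGFβ replicate 3 (adjusted p = 0.0523). With TGFβ in descending cells 21 of the 50 were called lower with the 6 libraries, beside 4.48% of all genes, with 40 at an unadjusted p under 0.05. DESeq2 called 39, beside 1013 genes higher and 1253 lower of 14929. Without descending control replicate 3 edgeR called 49 lower, beside 26.3% of all genes. Leaving out another of the 6 libraries gave 0 to 6 calls, beside 107 to 279 lower calls over all genes. In ascending cells 25 were called lower, beside 27.6% of all genes, Cdc25b, a phosphatase that activates Cdk1, with the smallest adjusted p (-0.96 ± 0.09, adjusted p = 1.38e-07). The interaction over all 12 libraries was called for Anln (0.90 ± 0.14, adjusted p = 0.0186) and Knl1, a kinetochore scaffold (1.57 ± 0.25, adjusted p = 0.0190), with 37 of the 50 at an unadjusted p under 0.05 and 19 called by DESeq2. By edgeR it was called for 0 of the 50 without any one of 7 libraries, the 3 ascending TGFβ replicates, descending TGFβ replicates 1 and 2 and ascending control replicates 1 and 3, and for 41 of the 50 without descending control replicate 3. Over all genes edgeR called 0.321% positive with the 12 libraries and 6.07% without that replicate. Without any one of those 7 libraries it called 10 to 15 genes positive. DESeq2 called 187 genes positive and 231 negative of 14242 with the 12 libraries.

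Of 44 further replication genes 31 were called higher in ascending cells under TGFβ and none lower, beside 18.1% and 18.2% of all genes, with a median of 0.56. Uhrf1, which maintains DNA methylation at the fork, differed by 1.12 ± 0.10 (edgeR adjusted p = 1.44e-10) and Lig1, the ligase of Okazaki fragments, by 0.82 ± 0.10 (adjusted p = 5.76e-08). In descending cells 3 were called lower with the 6 libraries, beside 4.48% of all genes, with 18 at an unadjusted p under 0.05. DESeq2 called 8, beside 1013 genes higher and 1253 lower of 14929. Without descending control replicate 3 edgeR called 33 lower, beside 26.3% of all genes. Leaving out another of the 6 libraries gave 0 calls, beside 107 to 279 lower calls over all genes. In ascending cells 4 were called higher and 5 lower, smaller shares than the 28.2% and 27.6% of all genes. Orc2, of the origin recognition complex, had 0.48 ± 0.07 in ascending (adjusted p = 1.26e-05) and Pola1, a subunit of DNA polymerase alpha, -0.55 ± 0.10 (adjusted p = 0.000206).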

How the data were processed

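Cultures of adventitial fibroblasts were sequenced in 12 libraries, 3 for each combination of site and treatment, and samples were grouped by their labels. Paired-end reads were aligned with STAR to mm10, and the authors deposited raw read counts per gene from featureCounts, without normalization, and the counting mode for strand is not given in the sources used here. Totals were 16250126 to 23892943 counts per library, which limits the precision of genes with few counts.

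Counts were tested with edgeR 4.0.16 in R 4.3.3, by the quasi-likelihood F-test with TMM normalization, filterByExpr (minimum count 10, minimum total 15) and Benjamini-Hochberg adjustment. The study's notes name DESeq2, which was run as an alternative (version 1.42.0). The 5 comparisons were TGFβ against control at each site, the sites within control and within TGFβ, and the interaction. SE was the size of the log2 fold change divided by the square root of F. Tables and figures were made in Python 3.11.15 with pandas 2.3.3 and matplotlib 3.10.9. Shared sequence is the percentage of 50-base exon sequences of a gene that also occur in exons of another gene on either strand (GENCODE vM21, GRCm38). Promoter sequences are from RefSeq (GRCm38.p6). The tests were checked on simulated data.

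The members and the further lists were chosen with earlier results of these data known. Every member was named. Values of every library are given for the D-type cyclins, the inhibitors, E2f1, Foxm1, Pcna, Mki67 and the 4 S phase and 4 mitosis members with the smallest adjusted p. From each further list, genes were taken from the 4 with the smallest adjusted p in a comparison. Ccne1, Ccne2, Rrm2 and Cdkn2a were set side by side, and Cdkn1c shown in detail, after their values were seen. Other settings were DESeq2's test, its size factors in edgeR, library totals without TMM, no filter, at least 10 counts in every library, the 12 libraries in one fit, the replicate number as a block and each library left out. DESeq2 without descending control replicate 3 was added after the data were examined. The single-cell data of the study were not used here.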

Additional observations from a re-analysis of the deposited data

Results flagged for a closer look

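The change with TGFβ differed between the sites over all 12 libraries for 2 further mitosis genes, by a test of the interaction itself. For Anln the difference was 0.90 ± 0.14 on the log2 scale (edgeR adjusted p = 0.0186), with a fold change of -0.33 ± 0.05 in ascending and -1.23 ± 0.14 in descending cells. Its libraries had 108, 122 and 109 normalized CPM in ascending control, 94.7, 86.5 and 90.9 in ascending TGFβ, 84.2, 89.2 and 95.6 in descending control and 40.3, 33.3 and 41.4 in descending TGFβ. For Knl1 the difference was 1.57 ± 0.25 (edgeR adjusted p = 0.0190), with -0.23 ± 0.12 in ascending and -1.80 ± 0.25 in descending cells. It had 7.87, 8.30 and 9.16 normalized CPM in ascending control, 6.84, 7.33 and 7.50 in ascending TGFβ, 9.42, 10.1 and 11.4 in descending control and 2.50, 2.60 and 3.78 in descending TGFβ. Descending control replicate 3 lay above both other descending controls for both genes, and without it the differences were 0.85 ± 0.09 and 1.48 ± 0.21. The call for Anln was lost without any one of 7 libraries, which were the 3 ascending TGFβ replicates, descending TGFβ replicates 1 and 2 and ascending control replicates 1 and 3 (edgeR adjusted p = 0.0578 to 0.0785). The call for Knl1 was lost without any one of these or ascending control replicate 2 (edgeR adjusted p = 0.0678 to 0.0793). With the replicate number as a block 1 of these 2 calls was lost, and 1 was lost with no filter on low counts. Of the 43 members none met the same test over 12 libraries.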

How the results depend on the processing

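The comparison of the sites under TGFβ kept all 21 mitosis members called in 12 of 13 alternatives and 14 with the 12 libraries in one fit, where 8 S phase members were called in place of 13, while leaving out each library gave 13 to 14 S phase and 21 mitosis members. With each library left out, the S phase members called ranged from 5 to 8 for TGFβ in ascending cells, from 0 to 11 for TGFβ in descending cells, from 0 to 8 for the sites in control and from 0 to 13 for the interaction, and the mitosis members from 8 to 15, 0 to 21, 0 to 3 and 0 to 21 in the same order. Each upper value of the last 3 comparisons was that without descending control replicate 3. DESeq2 called 5 S phase members for TGFβ in ascending cells, 4 in descending cells, and 2 S phase and 12 mitosis members for the interaction. The 12 libraries in one fit called 2 S phase and 0 mitosis members for TGFβ in ascending cells, 6 S phase members in descending cells and 1 between the sites in control. For TGFβ in descending cells, 0 S phase members were called with no filter and 3 with at least 10 counts in every library. For the interaction, at least 10 counts in every library gave 1 S phase and 1 mitosis member, and library totals without TMM gave 3 mitosis members. DESeq2 without descending control replicate 3 called 10 S phase and 21 mitosis members for TGFβ in descending cells, 3 and 2 for the sites in control, and 10 and 20 for the interaction. Its calls over all genes, in the same order, were 3352 higher and 2817 lower of 16733, 1932 higher and 1622 lower of 16557, and 662 positive and 1078 negative of 12801. With the 12 libraries in one fit, 2 of the 50 further mitosis and 2 of the 44 further replication genes were called for TGFβ in ascending cells in place of 25 and 9, and 23 and 11 between the sites under TGFβ in place of 47 and 31, while library totals without TMM gave 17 further replication genes in ascending cells. Library totals without TMM reversed Cdkn1a in ascending cells (log2 fold change -0.0783, adjusted p = 0.0493). The change of Cdkn1c with TGFβ in descending cells was -0.19 with the 6 libraries and ranged from -0.63 to 1.42 with each library left out, and it was positive and called without descending control replicate 3, also by DESeq2 (1.43). The interaction of Mcm2 ranged from -0.30 to 0.35 and that of Gins2 from -0.65 to 0.42 with each library left out, positive and called only without descending control replicate 3. The cause of these changes was not tested beyond that. Depth limits the precision of genes with few counts, such as Fen1 and Cdc6. How far shared sequence lowered the counts of Fen1 was not tested. Same-numbered libraries were not paired: the correlation of their deviations from the group means was -0.0260 to 0.0878. With the replicate number as a block, 0 S phase and 0 mitosis members were called for TGFβ in descending cells, and all other counts of called S phase and mitosis members stayed within 1.5 times.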

Other observations

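Genes that set the entry into the cycle were called in both directions. Of 26 regulators of G1 phase, RB and E2F, 7 were called higher and 5 lower with TGFβ in ascending cells by edgeR's quasi-likelihood test, beside 28.2% and 27.6% of all genes. In descending cells edgeR called 1 of the 25 tested higher and 0 lower with the 6 libraries, with 8 at an unadjusted p under 0.05, beside 3.59% and 4.48% of all genes. DESeq2 called 5, beside 1013 genes higher and 1253 lower of 14929. Without descending control replicate 3 edgeR called 6 higher and 9 lower of 26, beside 26.6% and 26.3%. Myc, a transcription factor that drives growth, rose at both sites while Ccnd1 fell. Its mean went from 21.5 to 58.0 normalized CPM in ascending cells (log2 1.42 ± 0.05, edgeR adjusted p = 4.23e-13) and from 20.9 to 54.4 in descending cells (1.37 ± 0.27, adjusted p = 0.0347). In descending cells it was 1.72 without descending control replicate 3, and the call was lost without any one of the other 5 descending libraries (adjusted p = 0.0838 to 0.154). Ccnd3, the third D-type cyclin, fell in ascending cells (-0.60 ± 0.04, adjusted p = 1.3e-09), and Rbl2, the pocket protein p130 of resting cells, fell there as well (-0.55 ± 0.06, adjusted p = 3.3e-07). Mybl2, which encodes B-MYB, was scarce, at 5.17 normalized CPM in ascending TGFβ and 1.89 in descending TGFβ (1.44 ± 0.21, adjusted p = 3.13e-06).

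Of 5 further genes listed by their names as CDK inhibitors, all 5 were called lower with TGFβ in ascending cells, Cdkn1b (p27) by 0.26 ± 0.07, Cdkn2c by 0.49 ± 0.10, Cdkn2d by 0.70 ± 0.11, Cdkn3 by 0.52 ± 0.14 and Cdkn1c by 1.51 ± 0.34, the last at 0.553 to 1.65 normalized CPM in the group means, beside 27.6% of all genes called lower. In descending cells 1 of the 5 was called with the 6 libraries, Cdkn3, lower by 1.22 ± 0.26, a call lost without any one of the descending libraries other than control replicate 3 (adjusted p = 0.122 to 0.236), beside 4.48% of all genes called lower. Without descending control replicate 3, in which Cdkn1c stood at 3.86 normalized CPM against 0.467 and 0.607 in replicates 1 and 2, 4 were called lower and Cdkn1c higher (1.42 ± 0.39, adjusted p = 0.00313), beside 26.3% and 26.6% of all genes. Cdkn1c was also lower in ascending than in descending cells under TGFβ (-1.35 ± 0.35, adjusted p = 0.00287), and its interaction was -1.36 ± 0.99 over the 12 libraries, not called, and -2.92 ± 0.52 without that replicate (adjusted p = 0.000237), negative as for the 3 members. Of 23 target genes of p53, 2 were called higher and 12 lower in ascending than in descending cells under TGFβ, beside 18.1% and 18.2% of all genes. Between the control groups 0 of them were called with the 6 libraries by edgeR or DESeq2, with 4 and 6 at an unadjusted p under 0.05, beside 1.19% of all genes called higher and 1.47% lower by edgeR, and 1 was called higher and 10 lower without descending control replicate 3, beside 16.4% and 15.2%. Pmaip1, a promoter of cell death, had means of 40.0 and 108 normalized CPM under TGFβ (-1.43 ± 0.06, edgeR adjusted p = 3.37e-18). Plk2 was not called between the sites under TGFβ, with means of 207 in ascending and 209 in descending TGFβ (-0.01 ± 0.04, adjusted p = 0.923), after a rise with TGFβ at both sites (1.73 ± 0.04 in ascending and 1.32 ± 0.14 in descending cells, or 1.45 ± 0.06 without descending control replicate 3, with the descending change not called without descending TGFβ replicate 1 or 3, at adjusted p = 0.0525 and 0.0515). With the 12 libraries in one fit Cdkn1b, Cdkn2c, Cdkn3 and Cdkn1c were not called in ascending cells.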
